A study of Mus musculus with 8 samples.

Results

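The tripartite motif (TRIM) genes were taken here as the protein-coding mouse genes whose symbol is Trim followed by a digit. The deposited files held 68 such genes, and 44 of them reached 0.5 TPM in at least 2 of the 8 RNA sequencing libraries. TPM is a share of a library's transcripts corrected for transcript length, so levels can be compared between genes. Of the 44 genes, 35 were at or above that level in all 8 libraries. Trim34b and Trim72 reached it only in the 2 IFNb libraries, and Trim43b lay between 0.258 and 0.766 TPM. Just outside were Trim46, Trim63 and Trim69, each of which reached 0.5 TPM in 1 library, with 0.621 TPM for Trim63 as the highest value below the level. By the same level, 14578 of the 30284 genes in the files were retained for the tests.

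The libraries were made from total RNA of macrophages, labelled peripheral, of 7-week-old male C57BL6 mice stimulated in the peritoneal cavity, with 2 libraries in each of 4 groups. The groups were saline for 4 h (Saline), bacterial lipopolysaccharide for 4 h (LPS, a ligand of TLR4), interferon beta for 4 h (IFNb, a type I interferon), and IFNb for 4 h with LPS then given for a further 4 h (LPS+IFNb). The labels give no genetic change in any group. The LPS+IFNb cells had spent longer after IFNb than the IFNb cells, and no group analysed here received IFNb and then saline, so time and the second agent cannot be told apart in that group. Whether a group's libraries came from different mice is not labelled, so the p-values measure only the spread between libraries, which may be technical. All 7 macrophage markers checked were at or above 1 TPM in every library, with a summed level of 14130 to 21820 TPM. The 5 markers of large peritoneal macrophages summed to 27.4 to 49.5 TPM, of which Icam2 held 7.91 to 19.6 TPM and Prg4 10.03 to 23.8 TPM, while Selp lay between 0.519 and 13.2 TPM, Gata6 lay between 0.862 and 2.11 TPM and Timd4 between 0.427 and 3.37 TPM. B cell markers summed to 60.8 to 62.4 TPM in Saline and 32.1 to 46.2 TPM in the treated libraries, and T and NK cell markers to 20.5 to 27.7 and 7.47 to 20.99 TPM. Mesothelial and fibroblast markers varied within groups, from 25.9 to 76.5 TPM over the 8 libraries.

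TRIM proteins carry a RING finger, 1 or more B-box zinc fingers and a coiled coil, followed by a variable C-terminal domain that binds the target. Most are E3 ubiquitin ligases. Several restrict viruses directly, as TRIM5 proteins do by binding retroviral capsids, and others attach ubiquitin to sensors and adaptors of innate immunity and so raise or lower the output of TLR, RIG-I-like receptor and interferon signalling. Many TRIM genes are themselves interferon-stimulated, and the promoters of such genes often hold interferon-stimulated response elements (ISRE). In mouse, the genes related to human TRIM5 have multiplied into a cluster on chromosome 7 that includes the Trim30 genes.

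The promoters of 3 Trim30 genes, among the members with the largest IFNb difference, are shown with that of Trim52, the member with the smallest IFNb difference among those with a promoter entry. The sequences are RefSeq's on GRCm38.p6, read 5′ to 3′ on the gene's strand, and end before the first annotated exon. Capitals mark letters that match one of 3 motifs searched on both strands: GAAANNGAA (the ISRE core), TTCNNNGAA (the gamma-activated site, GAS) or GGGANTTTC (NF-kB). The Trim30a window lies at chr7:104465194-104465443, Trim30d at chr7:104507850-104508099 and Trim30c at chr7:104400838-104401028, on the reverse strand, and Trim52 at chr14:106105948-106106197 on the forward strand.
Trim30a: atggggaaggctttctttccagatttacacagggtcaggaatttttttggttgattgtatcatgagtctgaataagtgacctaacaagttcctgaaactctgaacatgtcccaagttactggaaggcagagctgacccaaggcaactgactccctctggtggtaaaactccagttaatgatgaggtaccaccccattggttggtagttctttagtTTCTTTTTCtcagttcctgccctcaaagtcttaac
Trim30d: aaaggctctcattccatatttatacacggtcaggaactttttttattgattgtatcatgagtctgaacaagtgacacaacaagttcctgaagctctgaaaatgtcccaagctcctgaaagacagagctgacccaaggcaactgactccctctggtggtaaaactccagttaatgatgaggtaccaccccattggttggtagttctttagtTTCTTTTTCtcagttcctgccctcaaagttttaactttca
Trim30c: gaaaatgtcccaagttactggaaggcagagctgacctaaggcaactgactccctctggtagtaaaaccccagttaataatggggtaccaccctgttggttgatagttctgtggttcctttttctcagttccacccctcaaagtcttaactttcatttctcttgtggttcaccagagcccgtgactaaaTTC
Trim52: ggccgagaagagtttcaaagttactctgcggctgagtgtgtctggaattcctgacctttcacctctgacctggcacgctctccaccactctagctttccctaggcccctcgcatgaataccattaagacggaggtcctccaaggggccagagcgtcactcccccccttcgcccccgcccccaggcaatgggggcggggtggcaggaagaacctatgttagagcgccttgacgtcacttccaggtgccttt

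Trim30a and Trim30d shared 226 of 245 aligned promoter bases (92.2%), and in both the capitals TTCTTTTTC are the ISRE core read on the other strand. Trim30c shared 135 of 149 aligned bases with Trim30a (90.6%). At that match it differed from both by 1 substitution, T2C, counted from 1 at the first capital and with the Trim30a base first, and it held no ISRE core match. The capitals at the end of the Trim30c sequence begin a GAS match that runs on into the annotated first exon, 59 bases of which lie in its RefSeq promoter window and are not shown. The Trim30b window is not shown: its RefSeq start lies 11238 bases inside the annotated gene, in transcribed sequence.

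Promoter entries, each from 250 bases before to 50 bases after a RefSeq start, were found for 33 of the 44 members, and the entry nearest to the annotated start was used for each. An ISRE core match was present in 11 of the 33, against 8.56% of all 32851 promoter entries. Among members with an entry, the match was found in 9 of 14 that were higher with IFNb (Trim34b among the 9, Trim72 among the others), in 1 of 10 that were lower and in 1 of 9 that were not called. Such shares were not computed for all genes. Trim34b and Trim72 passed the level only through the IFNb libraries, so their calls with IFNb support nothing. Some entries without a match lay far from the annotated start: Trim30b (higher), Trim2 and Trim47 (lower), and Trim28 and Trim44 (not called). Their distances ran from 2102 bases for Trim2 to 25038 for Trim28. The matches of Trim5, Trim12a and Trim12c had the same letters, GAAACAGAA. The letters GAAACTGAA occurred at Trim21, Trim25 and Trim34a, and Trim21 held a second match, GAAAGTGAA. Of the other matches, Trim26 held GAAAGTGAA and GAAAAGGAA, Trim34b held GAAAGAGAA, and Trim7, which fell with IFNb, held GAAACGGAA. GAS matches were found at Trim30c (TTCTTAGAA) and Trim45 (TTCGGAGAA), against 8.30% of all entries, and an NF-kB match at the internal start of Trim30b (GGGACTTTC), against 1.11%. These are matches of letters in fixed windows and say nothing of what binds there.

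The family's summed level rose with each treatment. The 44 members added up to 686 and 832 TPM in the Saline libraries, 1618 and 1594 in LPS, 2985 and 2847 in IFNb, and 3124 and 3234 in LPS+IFNb, with no overlap between groups. The 4 Trim30 genes made up 10.7% and 9.88% of that sum in Saline, 46.0% and 43.7% in LPS, 56.0% and 54.8% in IFNb, and 63.5% and 62.7% in LPS+IFNb. By mean TPM summed over all transcripts of a gene, the leading member in Saline was Trim28, a nuclear corepressor, followed by Trim41 and Trim25. The only transcript of Trim28 annotated as coding, Trim28-201, had 12.6 and 14.8 TPM of this in Saline. Its other transcripts are annotated as retained introns. In all 3 treated groups Trim30a led.

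Differences were tested with limma on log2(TPM + 1), with Benjamini-Hochberg adjustment over all 14578 genes, and a gene is called at an adjusted p under 0.05. Differences on this scale understate the change of genes with low TPM. Against Saline, 15 members were higher with LPS and 19 lower. Over all genes tested, 11.4% were higher and 37.4% lower in that comparison, against 34.1% and 43.2% of the members. With IFNb, 15 members, Trim34b and Trim72 included, were higher and 17 lower (34.1% and 38.6%), beside 11.9% and 34.8% of all genes. With LPS+IFNb, 14 were higher and 23 lower (31.8% and 52.3%), beside 13.9% and 49.7%. As deposited, the share of members called lower was therefore near that of all genes in each of these comparisons. The median log2 difference of the members was -0.37 with LPS, -0.30 with IFNb and -0.64 with LPS+IFNb, beside -0.34, -0.33 and -0.53 over all genes.

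The median of all genes was thus below 0 with every treatment. TPM is a share of each library's sum, and whether this shift lies in the sum or in the genes was not tested. Scaling the libraries by median ratios brought the median to 0.01, -0.03 and 0.00. That scale is called rescaled below. On it, the split of higher and lower members was 16 and 10 in LPS, 15 and 7 in IFNb, and 16 and 15 in LPS+IFNb. Over all 14578 genes tested, the rescaled split was 2571 and 2130, 2319 and 1801, and 3526 and 3271. No member called in LPS or IFNb against Saline had the other sign after rescaling. In LPS+IFNb against Saline this was so for Trim3 alone, at -0.67 as deposited and 0.02 rescaled. Without the second IFNb library, 10 members rather than 17 were lower with IFNb.

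Read together, 13 members were higher with both LPS and IFNb, 11 were lower with both, 2 were higher with LPS and lower with IFNb (Trim13 and Trim36), 8 were lower with LPS only and 4 lower with IFNb only by these calls, and 2 were higher with IFNb only. These last, Trim34b and Trim72, passed the level only through the IFNb libraries and so had to be high there. Trim5, Trim11, Trim43b and Trim52 were called in neither. Over all genes tested, 5.08% were higher with both, 23% lower with both, 2.02% higher with LPS and lower with IFNb, 12.4% lower with LPS only and 9.73% lower with IFNb only. The 2 comparisons share the Saline libraries, and nothing further is read from these joint counts. The same 13 were higher with both after rescaling, while 4 of the 11 (Trim7, Trim16, Trim29 and Trim37) were then lower with both, and Trim36 alone was higher with LPS and lower with IFNb.

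**Figure D1:**
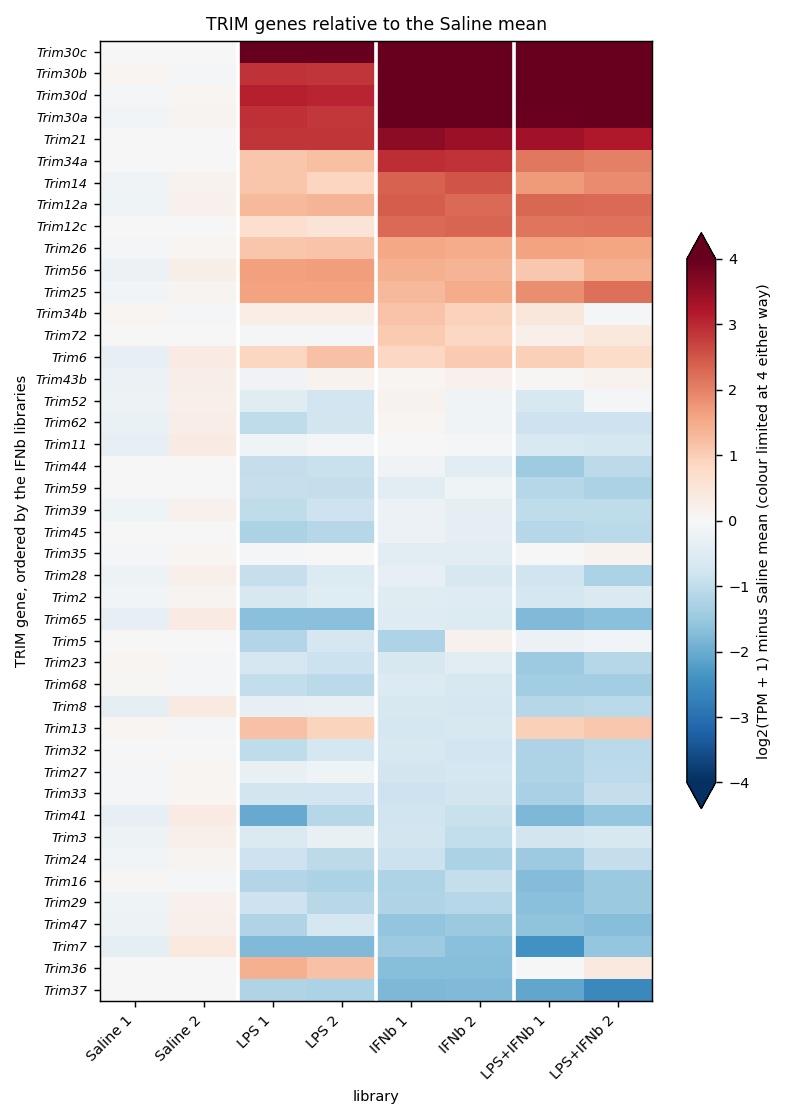
Each row is a TRIM gene and each column a library, and colour gives log2(TPM + 1) minus the Saline mean, limited at 4 in either direction. The 4 Trim30 genes are at the top, and Trim13 and Trim36 are red in LPS and blue in IFNb.

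**Figure D2:**
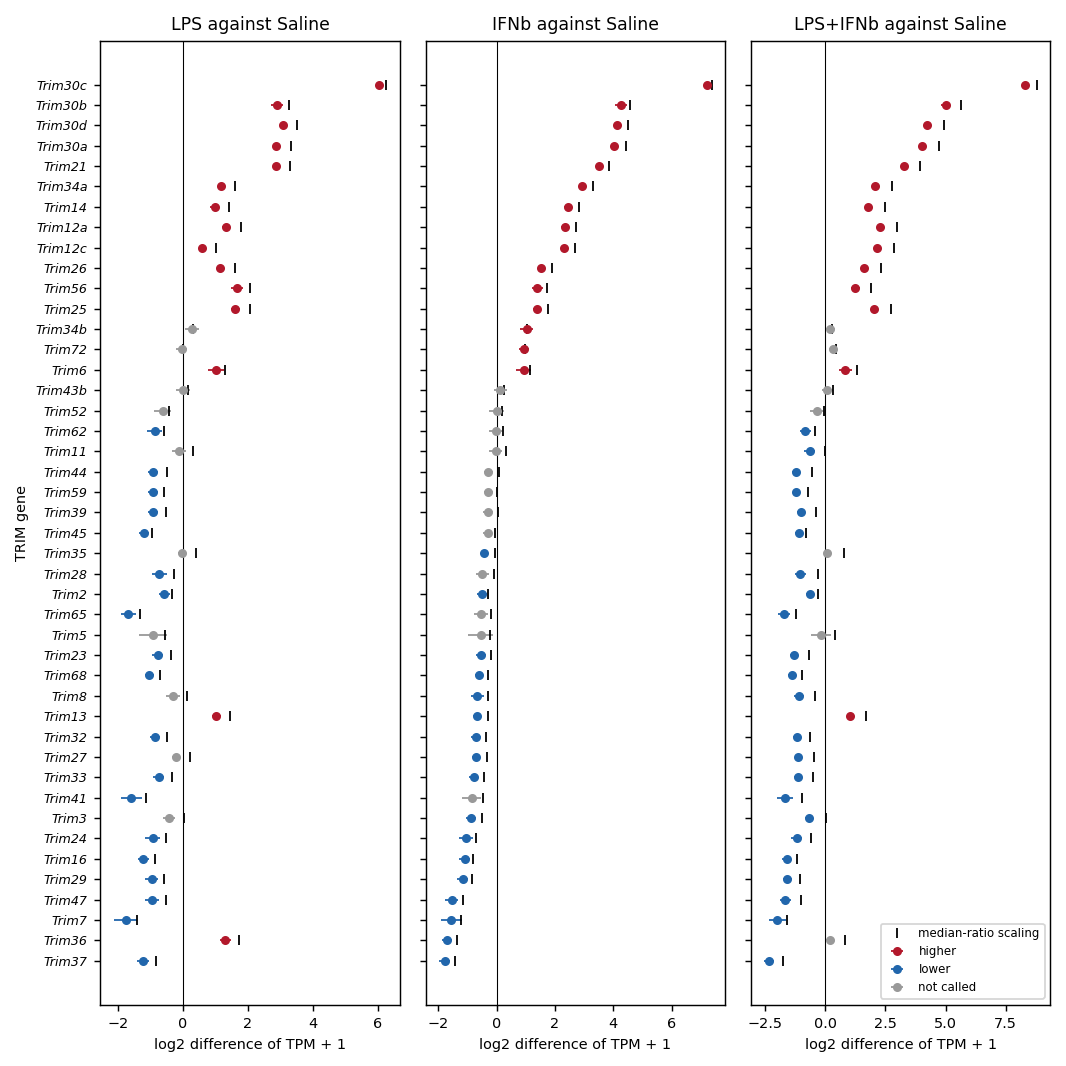
Points give the log2 difference of each TRIM gene from Saline in 3 comparisons, with bars of 1 standard error, coloured by the call at an adjusted p under 0.05, and black ticks give the rescaled difference (each panel has its own axis). Trim30c has the largest difference in each panel, at 6.03, 7.21 and 8.31.

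The TRIM5-related genes Trim6, Trim34a, Trim5, Trim12a, Trim34b, Trim12c, Trim30b, Trim30c, Trim30a and Trim30d lie next to each other on chromosome 7, in a region of 289.1 kb (GRCm38) that starts at 104218793 and ends at 104507849. The files held 11 genes there, the other being Gm16464, a processed pseudogene inside Trim30d at 0.249 to 16.2 TPM. Of the 10 Trim genes, 8 rose in LPS, 9 in IFNb (Trim34b included) and 8 in LPS+IFNb, and none fell in these comparisons, with or without rescaling. As deposited, 11.4%, 11.9% and 13.9% of all genes tested rose in them, and 37.4%, 34.8% and 49.7% fell. The median log2 difference of the 10 was 1.24, 2.63 and 2.21.

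**Figure D3:**
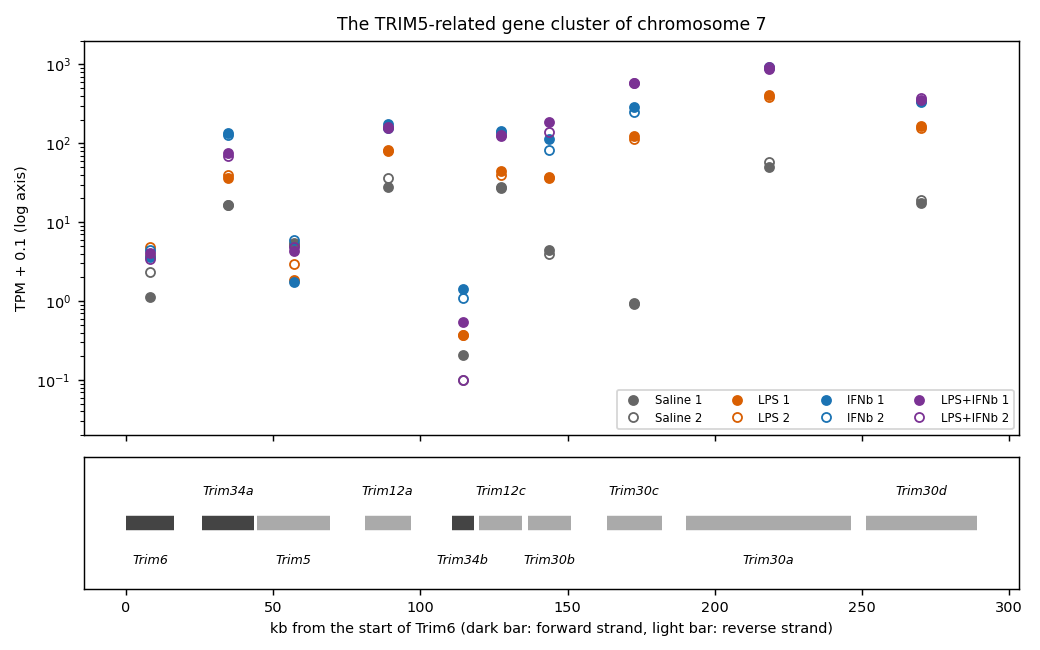
Upper panel, TPM + 0.1 on a log axis of the 10 clustered genes in each library, placed at the middle of each gene. Lower panel, the genes to scale in kb from the start of Trim6, dark on the forward strand and light on the reverse strand. The 4 Trim30 genes at the right span the widest range, from 0.828 TPM of Trim30c in Saline to 934 TPM of Trim30a in LPS+IFNb.

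Trim30a, whose protein is known to limit TLR signalling by lowering TAB2 and TAB3, was the most abundant member in the treated cells. It stood at 50.6 and 58.3 TPM in Saline, 415 and 390.4 in LPS, 925 and 892 in IFNb, and 864 and 934 in LPS+IFNb. The LPS libraries lay between Saline and the other treated groups, and the IFNb and LPS+IFNb libraries overlapped. Its log2 difference was 2.87 ± 0.09 (SE, n = 2 per group in every comparison) with LPS (limma adjusted p = 3.4e-06) and 4.04 ± 0.09 with IFNb (limma adjusted p = 6.87e-07), and LPS was lower than IFNb by a log2 difference of -1.17 (adjusted p = 0.000157). Trim30d, its neighbour with the similar promoter, went from 17.5 and 19.2 TPM in Saline to 167 and 158 in LPS, 342 and 334 in IFNb, and 351 and 376 in LPS+IFNb. Its order of groups was the same as that of Trim30a except that both LPS+IFNb libraries lay above both IFNb libraries, a difference of 0.10 that was not called (rescaled 0.43, called).

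Trim30c had the widest range of the family. Its values were 0.843 and 0.828 TPM in Saline, 125 and 113 in LPS, 291 and 252 in IFNb, and 583 and 579 in LPS+IFNb, so that the 4 groups were separate, in that order. The log2 difference from Saline was 6.03 with LPS, 7.21 with IFNb and 8.31 with LPS+IFNb, each with an SE of 0.10. LPS+IFNb exceeded LPS by 2.28 (adjusted p = 6.53e-05) and IFNb by 1.10 (adjusted p = 0.000654). Trim30b followed the same order, from 4.36 and 3.81 TPM in Saline to 37.0 and 36.2 in LPS, 113 and 82.2 in IFNb, and 187 and 139.9 in LPS+IFNb. Its excess of LPS+IFNb over IFNb was 0.74 ± 0.19 (adjusted p = 0.0261). That call was lost without the second IFNb library (0.51, adjusted p = 0.13), without the first LPS+IFNb library (0.53, adjusted p = 0.131), with no filter on low genes (adjusted p = 0.059) and with only the 2 groups fitted (adjusted p = 0.0738).

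Trim34a, Trim12a and Trim12c also had higher levels with IFNb than with LPS. Trim34a had 16.4 and 16.4 TPM in Saline, 36.2 and 39.5 in LPS, 134 and 127 in IFNb, and 74.8 and 69.5 in LPS+IFNb. It was highest with IFNb alone, and the fall from IFNb to LPS+IFNb (-0.85, adjusted p = 0.00112) was also called after rescaling (-0.52). Trim12a stood at 28.0 and 36.4, 79.7 and 83.3, 176 and 158, and 161 and 158 TPM in Saline, LPS, IFNb and LPS+IFNb. Trim12c stood at 28.2 and 27.2, 44.5 and 39.6, 138 and 143, and 125 and 127 TPM in the same order. LPS was lower than IFNb for Trim34a, Trim12c and Trim12a by log2 differences of -1.76, -1.72 and -1.02, each called, and the 2 LPS libraries lay below the 2 IFNb libraries in each.

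The remaining clustered genes were low. Trim6 was at 1.04 and 2.27 TPM in Saline and between 3.29 and 4.75 TPM in the 6 treated libraries, with log2 differences of 1.01, 0.93 and 0.84. Without the first Saline library these were 0.67, 0.59 and 0.50, with adjusted p of 0.0526, 0.0761 and 0.0952. Trim6 also lost its call without the second LPS library (adjusted p = 0.0923), without the first or second IFNb library (0.0664 and 0.114) and without the first or second LPS+IFNb library (0.116 and 0.0579). Trim34b was listed at 0.106 and 0 TPM in Saline, 0.269 and 0.272 in LPS, 1.32 and 1.00 in IFNb, and 0.447 and 0 in LPS+IFNb. It passed the level only through the 2 IFNb libraries, so that it had to be high there, and its call with IFNb supports nothing. Trim5 was not called in any comparison. Its 2 IFNb libraries, at 1.64 and 5.93 TPM, were its lowest and highest values, against 5.33 and 5.10 in Saline, 1.74 and 2.89 in LPS and 4.23 and 4.81 in LPS+IFNb.

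These genes share sequence, and reads that fit more than 1 gene are divided between them when transcripts are quantified. Of the 31-base words in their annotated transcripts, 69.0% of those of Trim34b were also in another gene, mainly Trim34a, and 48.8% of those of Trim34a. The share was 51.4% for Trim5, 46.2% for Trim12c and 15.5% for Trim12a, which share words with each other. It was lower for the Trim30 genes, at 11.9% for Trim30d, 11.8% for Trim30a, 5.69% for Trim30c and 2.44% for Trim30b. The division of reads among Trim34a and Trim34b and among Trim5, Trim12a and Trim12c is thus uncertain. Trim43b shared 64.0% of its words, mainly with Trim43a and Trim43c.

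Of 15 listed genes whose proteins act in antiviral and inflammatory signalling, 13 were members, the other 2, Trim31 and Trim38, being at 0.0494 TPM or less in every library. LPS brought 6 rises and 4 falls, IFNb 5 and 5, and LPS+IFNb 6 and 7. Over all genes tested, 11.4%, 11.9% and 13.9% rose and 37.4%, 34.8% and 49.7% fell. After rescaling the falls among the 13 numbered 2, 0 and 4, with the same counts of rises. The median log2 difference was -0.12, -0.04 and -0.65 (rescaled 0.30, 0.21 and 0.00). Trim14, Trim21, Trim25, Trim26 and Trim56 rose with each treatment.

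Trim21, the cytosolic antibody receptor, had 9.92 and 9.49 TPM in Saline, 77.2 and 76.6 in LPS, 127 and 114 in IFNb, and 108 and 97.0 in LPS+IFNb. All treated libraries were above Saline, and IFNb was highest in TPM as deposited. LPS+IFNb against IFNb was not called, however (-0.23, adjusted p = 0.11, rescaled 0.10). The log2 difference of Trim21 was 2.86 with LPS and 3.50 with IFNb, each with an SE of 0.10. LPS was lower than IFNb by -0.64 (adjusted p = 0.00258). Trim14, an adaptor without a RING finger that joins the mitochondrial MAVS complex, had 29.8 and 36.6 TPM in Saline, 71.8 and 60.3 in LPS, 175 and 195 in IFNb, and 109 and 124 in LPS+IFNb. The order in deposited TPM was the same as for Trim21 but the gap between LPS and IFNb was wider, with LPS lower by -1.48 (adjusted p = 0.00035). The fall of Trim14 from IFNb to LPS+IFNb, -0.66 as deposited, was -0.33 and not called after rescaling. It was also lost without the second IFNb library (-0.58, adjusted p = 0.0867) and without the first LPS+IFNb library (-0.57, adjusted p = 0.0816).

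Trim14 overlaps Nans on the opposite strand by 9852 bases and shared 30.3% of its words with it. Nans lay between 14.8 and 41.0 TPM, and whether strand was used in quantification is not given in the sources used here. The Trim14 transcript with the most TPM in each group, Trim14-204, is annotated as a processed transcript without a coding frame and took 37.5% to 59.6% of the gene's TPM.

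Trim25, the ligase that activates the RNA sensor RIG-I, had 51.8 and 60.7 TPM in Saline, 173 and 173 in LPS, 141 and 157 in IFNb, and 204 and 260.4 in LPS+IFNb. It was highest with both agents, though the excess over LPS was not called as deposited (0.41, adjusted p = 0.067) and was called only after rescaling (0.67). LPS and IFNb did not differ by the test (0.21 ± 0.14, adjusted p = 0.298). LPS+IFNb was above IFNb by 0.63 (adjusted p = 0.0157), a call lost without the first IFNb library (0.55, adjusted p = 0.0881), without the second (0.71, adjusted p = 0.0532) and without the second LPS+IFNb library (0.45, adjusted p = 0.0663). Trim56, linked to TLR3 and STING signalling, had 6.14 and 8.91 TPM in Saline, 25.3 and 25.5 in LPS, 21.7 and 20.5 in IFNb, and 16.6 and 21.8 in LPS+IFNb. The 3 treated groups lay close together, and no difference between them was called. Trim26, whose protein targets nuclear IRF3, had 30.9 and 34.7 TPM in Saline, 72.6 and 74.2 in LPS, 96.6 and 94.0 in IFNb, and 101 and 99.9 in LPS+IFNb. It rose by 1.14 with LPS and 1.51 with IFNb, and its top transcript, Trim26-209, is also annotated as a processed transcript, with 40.3% to 46.2% of the gene.

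**Figure D4:**
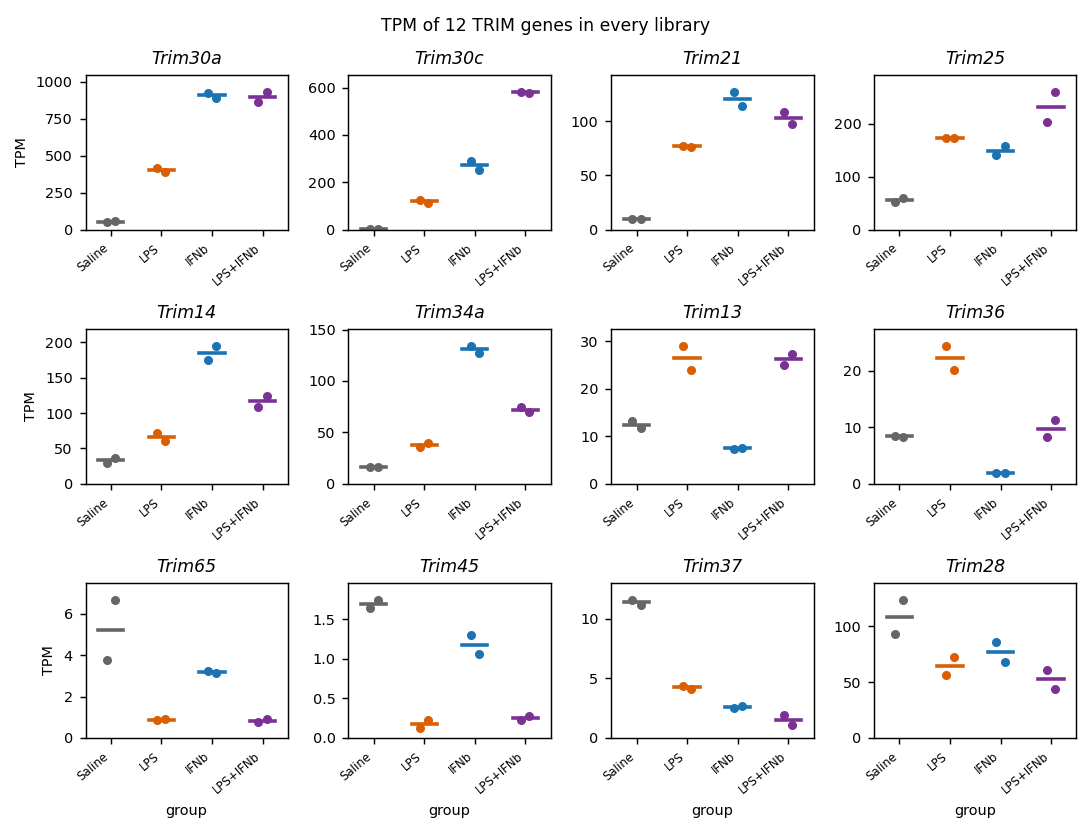
TPM of 12 TRIM genes by group, on axes that start at 0, with a point per library (n = 2) and a line at the group mean. The groups order differently by gene: Trim30c is higher in each group from left to right, Trim34a peaks with IFNb, Trim36 peaks with LPS and is lowest with IFNb, and Trim65 and Trim45 are low where LPS was given.

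Trim36 and Trim13 were the members with calls of opposite sign for the 2 agents. Trim36, a ligase associated with microtubules, had 8.49 and 8.29 TPM in Saline, 24.4 and 20.1 in LPS, 1.86 and 1.87 in IFNb, and 8.32 and 11.2 in LPS+IFNb. The LPS libraries were highest and the IFNb libraries lowest, while Saline and LPS+IFNb overlapped. The log2 difference was 1.30 ± 0.17 with LPS (adjusted p = 0.00126) and -1.71 ± 0.17 with IFNb (adjusted p = 0.000469). LPS exceeded IFNb by 3.01 (adjusted p = 3.91e-05), the largest positive value of any member in that comparison. LPS+IFNb lay below LPS by -1.12 and above IFNb by 1.90, both called, and its difference from Saline of 0.19 was not called (rescaled 0.83, called).

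Trim13, a ligase of the endoplasmic reticulum membrane, had 13.2 and 11.7 TPM in Saline, 29.0 and 23.9 in LPS, 7.30 and 7.62 in IFNb, and 25.1 and 27.4 in LPS+IFNb. LPS+IFNb was at the level of LPS, with overlapping libraries (-0.01, adjusted p = 0.978). The rise with LPS was 1.02 (adjusted p = 0.00117). The fall with IFNb was -0.67 (adjusted p = 0.00705) as deposited but -0.31 and not called after rescaling (adjusted p = 0.229). LPS exceeded IFNb by 1.69 (adjusted p = 0.000141), rescaled 1.76. Of the words of Trim13, 28.7% were also in Gm9359.

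Of the members that fell, Trim37, a histone H2A ligase also linked to peroxisome upkeep, was lower in every treated group. It had 11.5 and 11.1 TPM in Saline, 4.37 and 4.13 in LPS, 2.55 and 2.65 in IFNb, and 1.90 and 1.05 in LPS+IFNb, with no overlap between groups. The log2 difference was -1.24 with LPS, -1.78 with IFNb and -2.34 with LPS+IFNb, and each was called after rescaling (-0.82, -1.42 and -1.78). Trim16 and Trim29, both without a RING finger, and Trim7, whose protein is known to bind glycogenin, were likewise lower with each treatment on both scales. Trim16 had 4.05 and 3.70 TPM in Saline and 0.465 to 1.5 TPM in the treated libraries, and Trim29 had 4.75 and 6.36 TPM against 1.04 to 2.65 TPM. Trim7 had 3.36 and 6.56 TPM in Saline, 0.693 and 0.686 in LPS, 1.10 and 0.814 in IFNb, and 0.0619 and 0.961 in LPS+IFNb. Its fall with IFNb (-1.56, adjusted p = 0.0129) was not called without the second Saline library (-1.16, adjusted p = 0.0597), without the second IFNb library (-1.45, adjusted p = 0.067) or with a pseudocount of 0.1 (adjusted p = 0.0758).

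Summed B cell markers were also lower in every treated library than in Saline, at the levels given above. So were summed macrophage markers, at 19110 to 21820 TPM in Saline and 14130 to 17020 TPM in the treated libraries. A lower sum was thus not particular to B cell markers. Summed T and NK cell markers overlapped, at 20.5 to 27.7 TPM in Saline and 7.47 to 20.99 TPM in the treated libraries. Not every marker was lower, and these sums were not rescaled. The part of B, T and NK cells in the falls of TRIM members was not tested. In bulk RNA, fewer cells of a type and less RNA per cell cannot be told apart.

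Of the 8 members called lower with LPS and not called with IFNb, 6 are described next, chosen after their values were seen. Trim65, which activates the RNA sensor MDA5, had 3.79 and 6.68 TPM in Saline, 0.885 and 0.896 in LPS, 3.22 and 3.15 in IFNb, and 0.776 and 0.905 in LPS+IFNb. The 4 libraries given LPS lay below the other 4. Its difference from Saline was -1.68 with LPS (adjusted p = 0.0016, rescaled -1.32) and -0.53 with IFNb, which was not called. LPS was below IFNb by -1.15 (adjusted p = 0.00985), a call lost without the first LPS library (adjusted p = 0.0503) and without the first or second IFNb library (0.0532 and 0.0516). LPS+IFNb was below IFNb by -1.19 (adjusted p = 0.0106), which was lost without the first or second IFNb library (0.0563 and 0.0571) and without the first LPS+IFNb library (0.0588).

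Trim45, a filamin-repeat TRIM protein, was also low in the 4 libraries given LPS, with 1.64 and 1.75 TPM in Saline, 0.120 and 0.227 in LPS, 1.30 and 1.06 in IFNb, and 0.224 and 0.271 in LPS+IFNb. LPS was below IFNb by -0.89 (adjusted p = 0.00518, rescaled -0.88). Trim59, a membrane-anchored ligase, had 3.66 and 3.76 TPM in Saline, 1.51 and 1.43 in LPS, 2.51 and 3.22 in IFNb, and 1.12 and 0.974 in LPS+IFNb. Its LPS+IFNb libraries were the lowest (LPS+IFNb against IFNb -0.91, adjusted p = 0.00698, rescaled -0.73). Against LPS, the LPS+IFNb difference of Trim59 was not called (-0.27, adjusted p = 0.255, rescaled -0.13). Trim44, which lacks a RING finger, had 39.5 and 37.9 TPM in Saline, 19.5 and 20.2 in LPS, 34.9 and 28.6 in IFNb, and 13.8 and 18.2 in LPS+IFNb. Its difference was -0.93 with LPS (rescaled -0.48, not called) and -1.23 with LPS+IFNb (rescaled -0.54, called). Trim39 fell from 7.94 and 10.4 TPM to 3.98 and 4.67 in LPS (-0.93, rescaled -0.52). Trim41, second in level among the members in Saline at 45.9 and 73.5 TPM, was at 13.5 and 25.6 in LPS, 32.7 and 30.97 in IFNb, and 15.9 and 19.2 in LPS+IFNb. The call of Trim41 with LPS (-1.59, adjusted p = 0.0072) held after rescaling (-1.14), and its IFNb difference of -0.85 was not called. LPS against IFNb was not called for Trim41 on either scale (-0.74, adjusted p = 0.129, rescaled -0.68), so the 2 agents did not differ by the test. Trim47 had 14.2 and 19.1 TPM in Saline, 6.54 and 9.76 in LPS, 4.82 and 5.23 in IFNb, and 4.72 and 4.35 in LPS+IFNb. Unlike those 6, it had lower values in IFNb than in LPS, and it was called lower with IFNb (-1.54, adjusted p = 0.00185, rescaled -1.17). It overlaps Trim65 on the same strand by 5365 bases.

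The TIF1 corepressors are nuclear TRIM proteins that bind chromatin, and 3 of the 4 listed were members. Trim28 (KAP1), which works with KRAB zinc-finger proteins, had 93.2 and 124 TPM in Saline, 56.6 and 72.5 in LPS, 85.9 and 67.8 in IFNb, and 61.3 and 44.0 in LPS+IFNb. All treated libraries were below both Saline libraries, and the treated groups overlapped. Trim24 had 8.18 and 9.60 TPM in Saline and 2.61 to 4.50 in the treated libraries, and Trim33 had 8.82 and 9.81 against 3.15 to 5.19. As deposited, 3 of 3 were lower with LPS, 2 with IFNb and 3 with LPS+IFNb, beside 37.4%, 34.8% and 49.7% of all genes. After rescaling this was 0, 0 and 1 (Trim33, -0.52). The LPS call of Trim28 (-0.74, adjusted p = 0.0353) was also lost without the second Saline library (-0.53, adjusted p = 0.161), without the first LPS library (adjusted p = 0.167) or the second (0.0508), without a filter (0.0799) and with only the 2 groups fitted (0.0511). For Trim24 the calls with LPS and IFNb were lost without the second Saline library (adjusted p = 0.0712 and 0.0512), and without the second LPS library (0.0814) and the second IFNb library (0.0633) respectively. The top transcript of Trim28, Trim28-203, is annotated as a retained intron and took 30.4% to 39.3% of the gene. The coding transcript, Trim28-201, had 12.6 and 14.8 TPM in Saline and 6.30 to 10.9 TPM in the treated libraries.

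Of 5 members with NHL or filamin repeats, Trim56 rose with each treatment, and Trim2, Trim3 and Trim32 had lower values in every treated library than in either Saline library. Trim3 had 27.3 and 36.6 TPM in Saline and 15.4 to 25.6 TPM in the treated libraries, Trim32 had 5.20 and 5.19 against 1.62 to 2.97, and Trim2 had 1.19 and 1.53 against 0.431 to 0.686. After rescaling, only the fall of Trim3 with IFNb (-0.49) and those of Trim32 (-0.63) and Trim45 (-0.80) with LPS+IFNb, beside Trim45 with LPS (-0.95), were called among these. Trim72, known from membrane repair in muscle, was at 1.33 and 1.01 TPM in IFNb and 0.0869 to 0.491 TPM elsewhere, and it too passed the level only through the IFNb libraries. Trim8 ranged from 10.7 to 31.6 TPM, Trim11 from 6.33 to 14.0, Trim23 from 2.94 to 10.3, Trim27 from 10.5 to 28.0, Trim35 from 23.4 to 36.0, Trim62 from 0.415 to 2.43 and Trim68 from 0.703 to 3.68. Trim52 lay between 0.106 and 1.16 TPM. Of these, Trim68 was lower with LPS on both scales (-1.04, rescaled -0.70). Likewise, Trim27 and Trim23 were lower with LPS+IFNb on both (-1.15 and -1.30, rescaled -0.47 and -0.69).

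Between the single agents, 4 members were higher with LPS (Trim13, Trim27, Trim35 and Trim36) and 18 lower, 9.09% and 40.9% of the members. The 18 include Trim34b and Trim72. Over all genes tested, 14.7% were higher and 19.7% lower. The count of lower members was 11 without the first LPS library. The higher count was 2 without the second LPS library and without either IFNb library. Rescaled counts were 6 and 17, beside 2242 and 2517 of all 14578 genes. The calls of Trim27 (0.49) and Trim35 (0.40) were each lost without any 1 of the LPS and IFNb libraries, with adjusted p of 0.0571 and 0.0814 without the first LPS library, 0.105 and 0.101 without the second, 0.0923 and 0.0933 without the first IFNb library and 0.0846 and 0.101 without the second. All 4 Trim30 genes, Trim34a, Trim12a, Trim12c, Trim14 and Trim21 were among the lower members on both scales.

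Set against LPS alone, LPS+IFNb gave 10 higher and 5 lower members (22.7% and 11.4%), beside 9.55% and 20.8% of all genes. After rescaling the split was 12 and 3, beside 1862 and 1237 of all 14578 genes. The 10 were Trim12a, Trim12c, Trim14, Trim21, Trim26, Trim34a and the 4 Trim30 genes. The calls of Trim21 (0.41, adjusted p = 0.0203) and Trim26 (0.45, adjusted p = 0.00943) were lost without the first LPS library (adjusted p = 0.0827 and 0.054) and without the first LPS+IFNb library (0.11 and 0.0535), and that of Trim21 without the second LPS library (0.0893). The count of lower members was 3 without the second LPS library, either IFNb library or either LPS+IFNb library.

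Set against IFNb alone, 6 members were higher in LPS+IFNb and 13, Trim34b and Trim72 included, lower (13.6% and 29.5%). Over all genes, 7.87% were higher and 26.7% lower. After rescaling the split was 9 and 6, beside 1652 and 1322 of all 14578 genes. Trim13, Trim25, Trim30b, Trim30c, Trim35 and Trim36 were the 6 that were higher. On both scales the lower members were Trim34a, Trim44, Trim45, Trim59, Trim65 and Trim68. The call of Trim45 was lost without the first IFNb library (adjusted p = 0.0597) and without the first LPS+IFNb library (0.055), and that of Trim68 without the first IFNb library (0.0524). The call of Trim35 was lost without either IFNb library (0.0546 and 0.0603) and without the second LPS+IFNb library (0.0556). Without the second IFNb library 3 rather than 6 were higher. The lower count was 5 without either IFNb library and 6 without the first LPS+IFNb library.

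The interaction asks whether the log2 difference with both agents departs from the sum of the 2 single differences. It was called below 0 for 12 members (27.3%), beside 3.77% of all genes: Trim12a, Trim12c, Trim14, Trim21, Trim25, Trim26, Trim34a, Trim56 and the 4 Trim30 genes, with and without rescaling. Above 0 the count by limma was 0 of 44, beside 2.77% of all genes. At an unadjusted p under 0.05, 9 members were above 0. The share of all genes at that unadjusted level was not computed, so nothing is read from the 9. The lowest values were -4.93 for Trim30c, -3.09 for Trim21, -2.97 for Trim30d and -2.88 for Trim30a. The calls of Trim12c (-0.74), Trim25 (-0.98) and Trim56 (-1.80) were the least firm. They were lost, among others, without the first IFNb library (adjusted p = 0.0773, 0.0947 and 0.0639), the second IFNb library (0.0895, 0.135 and 0.0546) and the first LPS library (0.0641, 0.116 and 0.0558). Trim25 was also lost without the first Saline library (0.0783), and Trim25 and Trim56 without the second LPS library (0.113 and 0.0545). Trim25 and Trim12c were lost without the first LPS+IFNb library (0.0855 and 0.0765), and Trim12c without the second (0.0689).

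On the linear scale the 12 members divided. The sum of the LPS and IFNb mean levels less the Saline mean was 389.7 TPM for Trim30c and 130.1 TPM for Trim30b, and both LPS+IFNb libraries of each gene lay above it. For Trim30a it was 1257 TPM, for Trim34a 152 TPM, for Trim14 218 TPM and for Trim21 188 TPM, and both libraries lay below. The mean of LPS+IFNb was 1.49 times that sum for Trim30c, 1.26 times for Trim30b, 0.715 times for Trim30a and 0.474 times for Trim34a. In all, 2 members had both libraries above the sum and 10 had both below, and after rescaling 9 of the 10 were below and the libraries of Trim25 lay on either side. These are descriptions of group means with no test.

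Genes with which TRIM ligases work in nucleic acid sensing and interferon signalling are given for context. Of 27 listed, 26 were found and tested: LPS left 16 higher and 4 lower, IFNb 14 and 5, and LPS+IFNb 16 and 6 (rescaled 20 and 2, 14 and 3, and 18 and 4). As deposited, 11.4%, 11.9% and 13.9% of all genes tested were higher and 37.4%, 34.8% and 49.7% lower. The median log2 difference of the 26 was 0.48, 0.33 and 0.89. Isg15, a ubiquitin-like modifier, had the largest rise in each, by 6.66, 7.50 and 8.11. Ifih1, which encodes MDA5, the sensor that Trim65 acts on, rose by 5.35, 5.07 and 5.58, while Trim65 itself fell with LPS and LPS+IFNb. Card9, an adaptor of fungal sensing, and Mavs, the mitochondrial adaptor of RNA sensors, had the largest falls, at -1.26 and -1.09 with LPS (rescaled -0.81 and -0.66) and -1.40 and -1.20 with IFNb (rescaled -1.01 and -0.83). In the interaction 10 of the 26 were called below 0, beside 3.77% of all genes.

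TRIM proteins known under other symbols moved differently from each other. Pml, the core of PML nuclear bodies, had 10.1 and 23.8 TPM in Saline, 73.6 and 81.3 in LPS, 218 and 211 in IFNb, and 142 and 169 in LPS+IFNb. Its log2 difference was 2.24 with LPS and 3.70 with IFNb, and its deposited TPM followed the order of Trim21. LPS+IFNb against IFNb was not called for Pml either (-0.47, adjusted p = 0.326). Mefv, which encodes pyrin, had 6.12 and 6.63 TPM in Saline, 157 and 135 in LPS, 6.28 and 6.82 in IFNb, and 118 and 141 in LPS+IFNb. It was high in the 4 libraries given LPS only, with a difference of 4.31 with LPS (adjusted p = 2.4e-06) and 0.03 with IFNb (adjusted p = 0.855), and LPS exceeded IFNb by 4.28 (adjusted p = 4.06e-06). Mid1 was not called in any comparison as deposited, at 8.399 to 43.2 TPM.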

How the data were processed

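The deposited files, 1 per library, hold TPM for 88198 Ensembl transcripts as the authors made them, per the file headers. The submitters' processing notes name kallisto and mm10. Libraries were made with a TruSeq kit, per the labels' protocols. The version, options and strand setting were not given in the sources used here. TPM keeps no read number, so depth is unknown and a gene at 0 is only listed at 0. No library was pooled or left out, and groups came from the labels.

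TPM was summed per gene with GENCODE M21, which held 86119 of the transcripts. The other 2079 took 1.01% to 1.95% of a library. Genes that reached 0.5 TPM in 2 or more libraries entered limma 3.58.1 (R 4.3.3), on log2(TPM + 1) with an intensity trend and 1 mean per group over all 8 libraries (4 residual degrees of freedom and 2.59 from the prior). Tests were two-sided. The model was tested on simulated data. Alternatives were median-ratio scaling, rescaling to protein-coding genes, a pseudocount of 0.1, minimum levels of 1 or 5 TPM or none, only the groups compared, a 2-fold minimum, the replicate block, and each library left out.

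Members and gene lists were chosen with earlier results of these data known. Values in every library are given for members with a called absolute log2 difference of at least 1.5 with LPS or IFNb and for Trim21, Trim25, Trim28 and Trim30a. Values of other members given in every library were chosen after they were seen. From the lists of other genes, the 3 largest changes per direction could be named. Promoters chosen were those of the 4 members with the largest IFNb difference and the 1 with the smallest, less any transcribed base, which left Trim30b out. Members of chromosome 18 have no sequence shown.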

Additional observations from a re-analysis of the deposited data

How the results depend on the processing

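Over the 171 called differences of the members, 2683 alternative values were computed. The call was lost in 250 of them, touching 61 of the 171, and 1 turned sign: Trim3 in LPS+IFNb against Saline, at 0.02 after median-ratio scaling. Counts both of higher and of lower members moved under several settings. Median-ratio scaling gave 9 rather than 6 members higher in LPS+IFNb against IFNb and 6 rather than 4 in LPS against IFNb, and fitting only the groups compared also gave 6 in the latter. Scaling further gave 10 members lower with LPS, 7 with IFNb, 15 with LPS+IFNb, and, for LPS+IFNb, 3 against LPS and 6 against IFNb. Rescaling to protein-coding genes gave 1 member above 0 in the interaction rather than 0. A minimum of 5 TPM, which leaves fewer members to test, gave 10 lower with LPS, 14 with LPS+IFNb and 7 in LPS+IFNb against IFNb. No filter gave 3 lower in LPS+IFNb against LPS, and the cause was not tested. The stricter 2-fold minimum gave 7 lower with LPS and 7 with IFNb, 5 higher and 2 lower in LPS+IFNb against LPS, 3 higher and 1 lower in LPS+IFNb against IFNb, and 2 higher and 9 lower in LPS against IFNb.

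With each library left out in turn, members lower with IFNb ranged from 10 to 16. In LPS+IFNb against LPS, the lower count ranged from 3 to 7. In LPS+IFNb against IFNb the higher count ranged from 3 to 6 and the lower from 5 to 15, and in LPS against IFNb from 2 to 5 and from 11 to 18. The interaction had 0 to 1 above 0. The cause of these moves was not tested. A group left with 1 library is assumed to vary like the others.

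The labels share replicate numbers between groups without saying that they pair libraries. Deviations of same-numbered libraries correlated at -0.15 to 0.14. With the replicate number as a block, the higher and lower counts were 15 and 18 with LPS, 15 and 16 with IFNb, 14 and 23 with LPS+IFNb, 11 and 5 in LPS+IFNb against LPS, 6 and 12 against IFNb, 4 and 18 in LPS against IFNb, and 0 and 12 in the interaction. The call of Trim28 in LPS against Saline was then lost (adjusted p = 0.0552). The interaction could not be fitted with only the groups compared, since it needs all 4.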

Other observations

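Some of the 24 TRIM genes below the level are known from other tissues. Trim42, Trim54 and Trim55 were listed at 0 in every library, the latter pair being muscle RING-finger genes. Trim31 and Trim38, both linked to innate signalling, were at most at 0.0266 and 0.0494 TPM. Trim71, known from early development, was at most at 0.0109 TPM, and the neuronal Trim9 and Trim67 at most at 0.103 and 0.0528 TPM.

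Which transcript led a gene differed between groups for a few members. For Trim21 it was Trim21-201 in Saline, with 50.6% and 78.1% of the gene, and Trim21-202 in the treated groups, with 57.8% and 60.5% in LPS, 73.8% and 57.2% in IFNb, and 76.5% and 59.1% in LPS+IFNb. Trim30a-201 held 76.2% and 59.3% of Trim30a in Saline, 55.5% and 56.7% in LPS, 74.4% and 75.1% in IFNb, and 73.2% and 70.7% in LPS+IFNb. Trim25-203 held 85.1% to 98.3% of Trim25 in every library. No test was made of these shares.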
